A study of Mus musculus with 50 samples.

Results

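The genes described here move calcium into and out of the stores of the cell. They are 4 calcium pumps (Atp2a2, Atp2b1, Atp2b4 and Atp2c1), 4 genes of store-operated calcium entry (Stim1, Stim2, Orai1 and Orai2) and 2 inositol trisphosphate receptors that release stored calcium (Itpr1 and Itpr2). These 10 genes were taken by symbol from the 39056 entries of the deposited gene count table, for the roles of their proteins, and all 10 were among the 16460 genes tested.

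The libraries are bulk RNA-seq of mouse developing oligodendrocytes, the cells that will form myelin. Progenitors were immunopanned from the cortices of 6 day old C57BL/6 pups, passaged in 2 cycles and switched to differentiation, with treatment starting 12 to 14 h later. One label gives the tissue as whole brain. Wild-type cells and cells homozygous for a null Nrf2 allele (Nrf2 -/-, gene Nfe2l2, a transcription factor of the oxidative stress response) were left untreated or given interferon gamma (IFN-γ) at 200 U/ml for 1, 8, 24 or 48 h, or thapsigargin, at a labelled 200 uM, for 1 or 8 h. There are 20 groups and 50 libraries, 2 per wild-type group and 3 per Nrf2 -/- group. The study's design text gives a larger number of mutant replicates than the 3 in each group here. The labels do not name separate cultures or animals behind the replicates, so p-values rest only on the spread of libraries within groups. For the gene tests that spread is pooled over all 20 groups, and part of it may be technical.

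Calcium stores of the endoplasmic reticulum (ER) are filled by SERCA pumps and emptied through inositol trisphosphate and ryanodine receptors. When the store runs low, STIM proteins in the ER membrane sense the loss and open ORAI channels in the plasma membrane, while plasma membrane pumps (PMCA) and the Golgi pump SPCA1 carry calcium out of the cytosol. Thapsigargin inhibits SERCA, so Atp2a2 encodes the protein that the compound blocks. In the oligodendrocyte lineage calcium signals are known to bear on maturation and on the growth of myelin sheaths.

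Library depth was 32.3 to 54.7 M counted reads (M, 1e+06 reads), with a median of 36 M. Levels are given as CPM, counts per 1e+06 counted reads after TMM scaling. Nfe2l2 itself was at 5.12 to 70.4 CPM in wild-type libraries and at 0.0973 to 0.859 CPM in the Nrf2 -/- libraries, with 1 exception: replicate 3 of the libraries labelled Nrf2 -/- untreated 8 h had 7.62 CPM. That value lies within the 5.12 to 10.1 CPM of untreated wild-type libraries at 8 h. In 3 further libraries, replicate 2 of each Nrf2 -/- 8 h group, the title and the genotype tag disagree, and the title was followed. Nfe2l2 in these 3 lay within the 0.0973 to 0.859 CPM given for Nrf2 -/- libraries, below every wild-type library. Of the markers of the lineage, Pdgfra, which marks progenitors, was at 183 to 1270 CPM, and the 7 oligodendrocyte markers are given as sums beside the results. Of 5 microglia markers Aif1 and C1qa were at 0 CPM in every library, Cx3cr1 and Csf1r reached at most 0.0863 and 0.101 CPM, and P2ry12 was at 1.04 to 7.62 CPM. Of 5 vascular markers Cldn5 was at 0 CPM in every library and Kdr was highest, at 0.372 to 4.66 CPM. Slc1a3 led the 5 astrocyte markers (7.94 to 66 CPM) and Syt1 the 5 neuron markers (1.53 to 19.6 CPM) by their highest level. Both treatments acted on their known targets at 8 h. Ddit3, encoding the stress factor CHOP, rose with thapsigargin by log2 5.75 ± 0.14 (SE) in wild type and 5.95 ± 0.12 in Nrf2 -/- cells, and the interferon target Irf1 rose with IFN-γ by 5.48 ± 0.13 and 5.63 ± 0.11. In bulk libraries fewer cells of a type and less RNA per cell cannot be told apart.

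The 10 genes covered a wide range of levels. Per kilobase of merged exon and over all 50 libraries, Atp2a2 had the highest median at 41 CPM per kb (19.9 to 202.0). It was followed by Itpr2 at 26.7 (8.85 to 60.7), Atp2c1 at 15.6 (11.7 to 17.6) and Stim2 at 9.46 CPM per kb (6.31 to 11). Atp2b1 at 6.90, Orai1 at 5.40, Stim1 at 3.65 and Orai2 at 3.09 CPM per kb came next, and Itpr1 at 0.936 and Atp2b4 at 0.0968 were lowest. Atp2c1 and Stim2 were the only neighbours in this order whose ranges over the 50 libraries did not overlap. With kallisto's transcript estimates per length instead, Atp2c1 moved ahead of Itpr2, Atp2b1 ahead of Stim2, Stim1 ahead of Orai1 and Atp2b4 ahead of Itpr1. Atp2b4 had a median of 44 counts in the gene table but 201.7 estimated counts from kallisto, so its level and its responses depend on how reads were assigned.

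**Figure D1:**
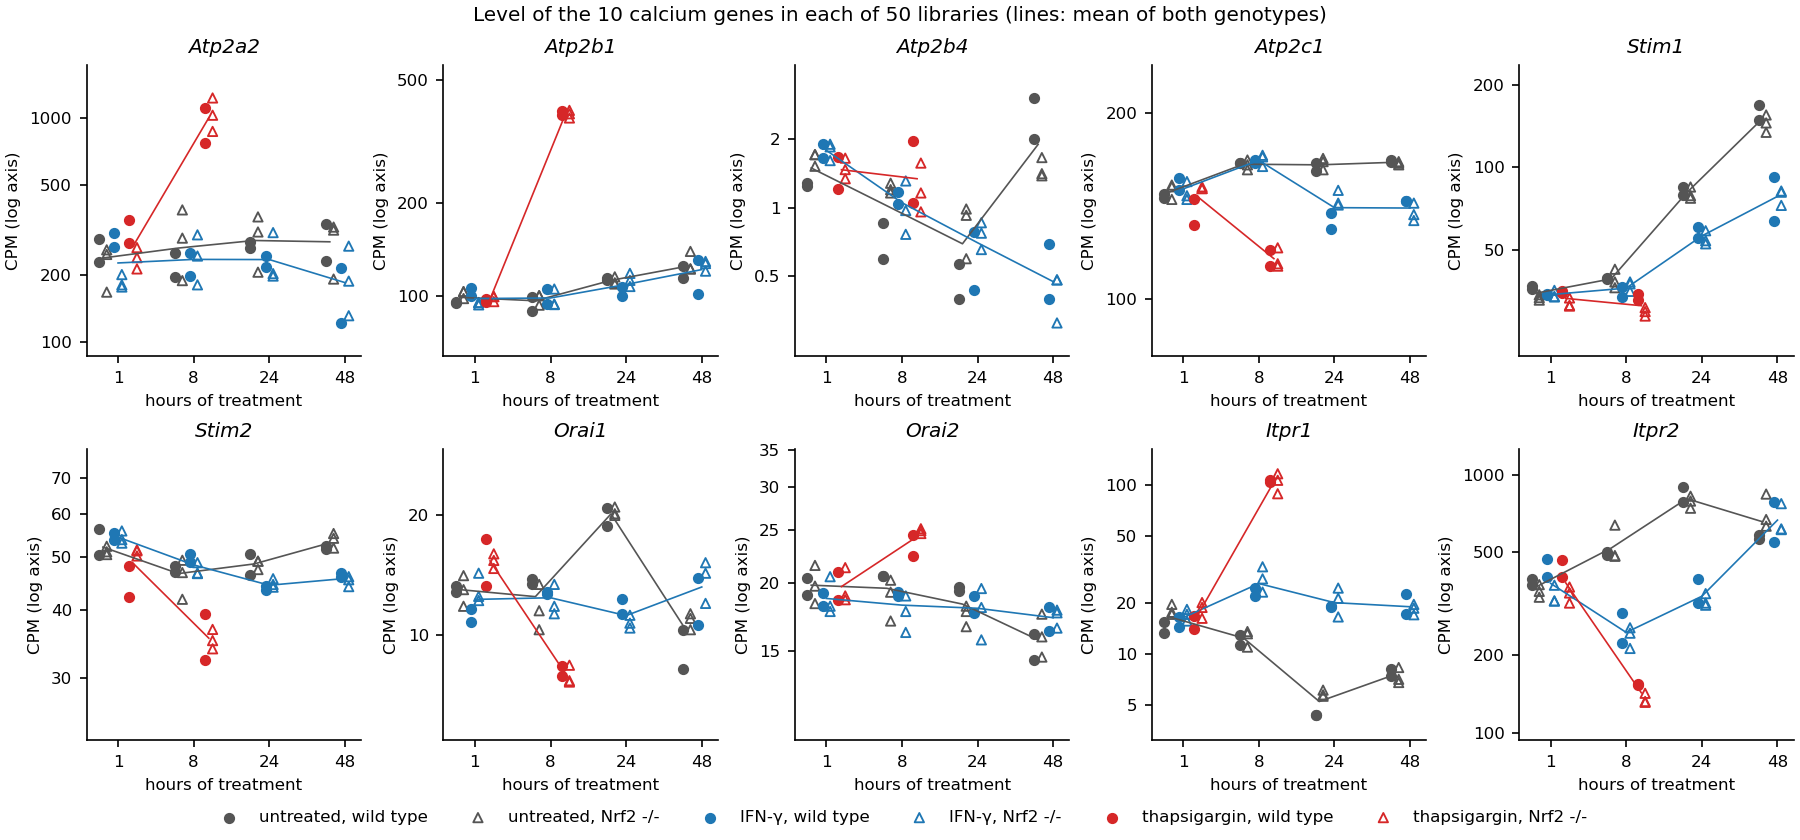
Level of each of the 10 genes in CPM (log axis) against hours of treatment, 1 point per library, with filled circles for wild type and open triangles for Nrf2 -/- and lines through the mean over both genotypes. With thapsigargin at 8 h the points of Atp2a2 (776 to 1230 CPM), Atp2b1 (376 to 398 CPM) and Itpr1 (89.1 to 117 CPM) lie above all others of their gene, and untreated Stim1 climbs to 134 to 168 CPM at 48 h.

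Thapsigargin at 8 h moved 9 of the 10 genes in each genotype. The ER pump Atp2a2, the plasma membrane pump Atp2b1 and the release channel Itpr1 rose 3.61-fold to 8.63-fold, while the other release channel, Itpr2, fell to 0.311 of its untreated level in wild type and to 0.252 in Nrf2 -/- cells. The entry channel Orai1, the sensors Stim1 and Stim2 and the Golgi pump Atp2c1 fell by smaller amounts. Of the 10 genes 4 rose and 5 fell in each genotype, at an edgeR BH-adjusted p below 0.05. In the same comparisons 55.5% of all tested genes were called in wild type, 28.4% as higher and 27.1% as lower. In Nrf2 -/- cells 60.0% were called, 30.4% as higher and 29.6% as lower. The median log2 fold of the 10 genes was −0.02 in wild type and −0.17 in Nrf2 -/- cells, beside 0.02 and 0 over all genes. In these groups the summed level of 7 oligodendrocyte markers was 1470 to 1960 CPM with thapsigargin and 5830 to 7340 CPM untreated, and that of 4 progenitor markers was 2170 to 2850 against 3390 to 3980 CPM. The 5 astrocyte markers summed to 63.2 to 70 CPM against 27.2 to 31.5 CPM, and the 5 neuron markers to 18.6 to 24.9 against 13.3 to 19.1 CPM. The part of these shifts in the results for the 10 genes was not tested.

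Atp2a2 (ENSMUSG00000029467.15, GRCm38 chromosome 5, 122453513 to 122502225, minus strand) encodes SERCA2, the pump that thapsigargin blocks. In wild-type cells at 8 h it was at 196 and 250 CPM untreated and at 776 and 1110 CPM with thapsigargin. In Nrf2 -/- cells it was at 188, 291 and 389 CPM untreated and at 872, 1030 and 1230 CPM with thapsigargin. Every treated library lay above every untreated one. The log2 fold was 2.08 ± 0.36 (SE) in wild type (edgeR BH-adjusted p = 9.05e-06) and 1.85 ± 0.29 in Nrf2 -/- cells (1.63e-06). When replicate 3 of the untreated 8 h libraries labelled Nrf2 -/- was left out, the highest of them at 389 CPM, the value was 2.12 ± 0.33. Atp2a2 varied more between replicates than most of the genes described: its median coefficient of variation within a group was 19.7%, against 4.02% for Atp2b1 and 2.37% for Atp2c1.

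The gene makes pumps with different ends. In GENCODE M21 a long-end transcript (ENSMUST00000031423.9) and a short-end transcript (ENSMUST00000177974.7) share all but the last stretch of coding sequence. The long end belongs to the form known as SERCA2b, which is widespread, and the short one to SERCA2a, known from heart and slow muscle. The ends are shown from 30 shared coding bases, in lower case, to the stop codon, with the bases particular to each transcript in capitals (GRCm38, chromosome 5, minus strand). The long end has 152 own bases, at 122457151 to 122457302, and the short end has 14, at 122454291 to 122454304.
Atp2a2 long end: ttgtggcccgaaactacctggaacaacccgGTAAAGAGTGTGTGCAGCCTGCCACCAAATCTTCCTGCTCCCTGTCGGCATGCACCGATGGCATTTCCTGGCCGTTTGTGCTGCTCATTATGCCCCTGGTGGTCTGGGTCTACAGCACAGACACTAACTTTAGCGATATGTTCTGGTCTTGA
Atp2a2 short end: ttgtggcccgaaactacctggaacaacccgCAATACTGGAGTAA
A transcript that the annotation classes as subject to nonsense-mediated decay (ENSMUST00000179939.7) has the same coding sequence as the long-end one and differs in its untranslated part.

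Per length, the long end was the most abundant. Over the 50 libraries the long-end transcript made up 40.3 to 64.2% of Atp2a2 transcripts (median 52.9%), the decay-class transcript 18.7 to 36.5% (median 26.4%) and the short-end transcript 11 to 21.7% (median 16.2%). At 8 h the share of the short-end transcript was 14.5 to 19.4% in the 5 untreated libraries and 15 to 16.2% in the 5 thapsigargin libraries. The treated minus untreated difference, averaged over both genotypes, was −1.23 percentage points (exact permutation p = 0.183, two-sided, BH-adjusted 0.6). The treated range lay inside the untreated one. At 48 h the long-end transcript was at 43.5 to 62.1% with IFN-γ and at 55.5 to 64.2% untreated, a mean difference of −9.98 points (exact permutation p = 0.0333, BH-adjusted 0.343). Over 36 transcripts of the 10 genes and 216 comparisons, 21 had an unadjusted exact p below 0.05 and 0 passed adjustment. The smallest p that 120 arrangements of the labels allow is 0.0167, which over 216 comparisons could pass only if many comparisons reached it.

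**Figure D2:**
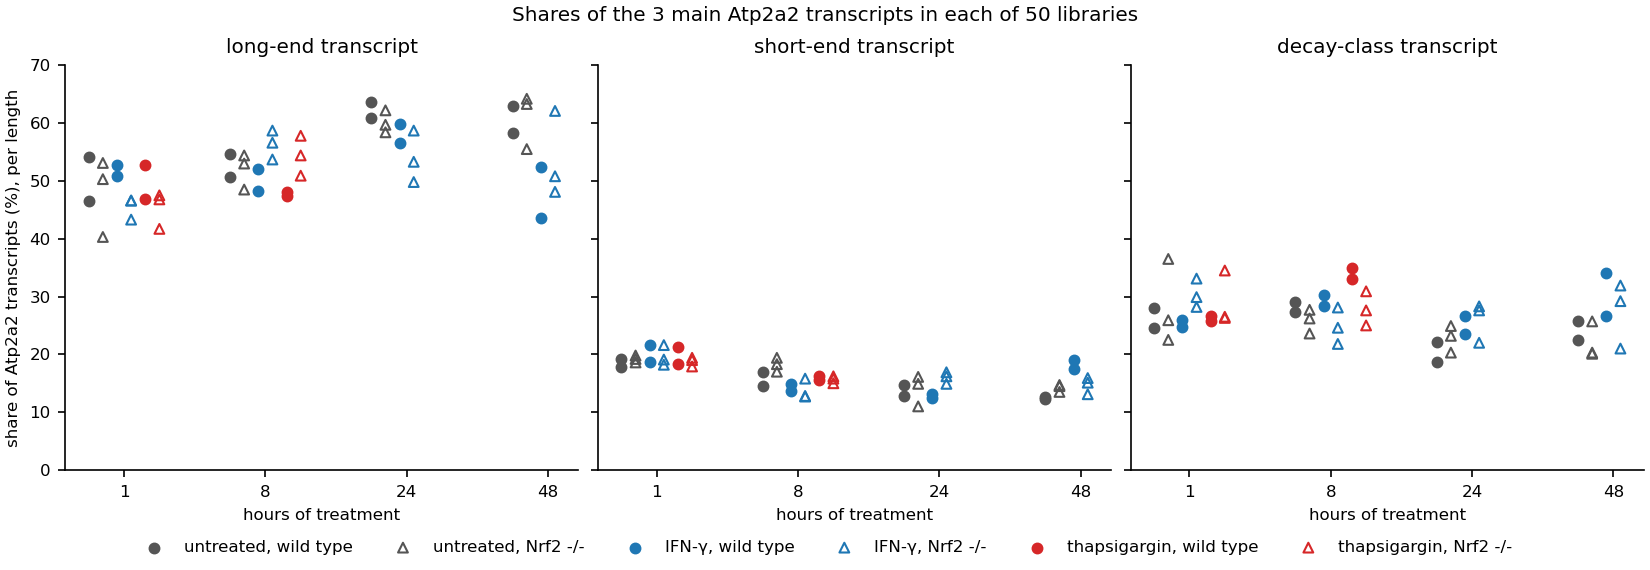
Share of each of the 3 main Atp2a2 transcripts in percent of all Atp2a2 transcripts, from kallisto estimated counts divided by length, against hours of treatment, 1 point per library. The share of the short-end transcript stays between 11 and 21.7% in every group, with thapsigargin at 8 h inside the range of the untreated libraries.

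Over the 20 group means of log2 CPM, the genes whose pattern lay nearest to that of Atp2a2 were Srpr (Pearson r = 0.974), Txndc11 (0.973), Pgm3, Mia2 and Setd5 (0.971 each). Among the 10 genes described, Atp2b1 was nearest to it (r = 0.90). These values describe 20 means that share libraries and treatments, and the pair of thapsigargin 8 h groups held the highest means of Atp2a2.

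Of the plasma membrane pumps, Atp2b1 rose in both genotypes and Atp2b4 was called in wild type, with the difference between genotypes not passing. Atp2b1 (ENSMUSG00000019943.10, chromosome 10, 98914406 to 99026143) encodes PMCA1, the housekeeping pump that expels calcium from the cell. At 8 h it was at 89.1 and 98.9 CPM in untreated wild-type cells and at 385 and 397 CPM with thapsigargin. The Nrf2 -/- libraries had 93.1 to 100 CPM untreated and 376, 388 and 398 CPM treated. The groups did not overlap, and the log2 folds were 2.06 ± 0.08 (edgeR BH-adjusted p = 2.66e-23) and 1.99 ± 0.07 (4.33e-26). Its main transcript (ENSMUST00000020107.7) was at 53.6 to 60.6% of the gene's transcripts untreated and 61.5 to 66.2% with thapsigargin, without overlap (6.24 points, exact permutation p = 0.0167, the smallest possible, BH-adjusted 0.343).

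Atp2b4 (ENSMUSG00000026463.17, chromosome 1, 133699457 to 133801041), encoding PMCA4, was scarce, with 11 to 106 counts per library. At 8 h wild-type cells had 0.595 and 0.860 CPM untreated and 1.05 and 1.96 CPM with thapsigargin, a log2 fold of 1.04 ± 0.30 (edgeR BH-adjusted p = 0.00352). Nrf2 -/- cells had 1.16, 1.20 and 1.28 CPM untreated and 0.958, 1.16 and 1.57 CPM treated, a log2 fold of 0.03 ± 0.24 with a 95% interval of −0.46 to 0.52 (edgeR BH-adjusted p = 0.925). The responses of the genotypes differed by −1.01 ± 0.39, which did not pass (edgeR BH-adjusted p = 0.583). In wild type the rise no longer passed when untreated 8 h replicate 1 (0.80, edgeR BH-adjusted p = 0.0722) or thapsigargin 8 h replicate 2 (0.52, 0.267) was left out, or with kallisto's estimated counts (0.36, 0.129).

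Atp2c1 (ENSMUSG00000032570.17, chromosome 9, 105403539 to 105527319), encoding the Golgi calcium and manganese pump SPCA1, fell little but evenly. Untreated libraries at 8 h had 162 to 168 CPM and thapsigargin libraries 113 to 121 CPM, without overlap. The log2 fold was −0.51 in both genotypes (SE 0.05 in wild type and 0.04 in Nrf2 -/-, edgeR BH-adjusted p = 9.88e-11 and 2.88e-13). Exons of Aste1 overlap Atp2c1 on the opposite strand, and the strand setting of the counting is not given in the sources used here, so reads of that overlap cannot be told apart.

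Of the sensors and channels of store-operated entry, Orai1, Stim1 and Stim2 fell with thapsigargin at 8 h, and Orai2 rose in Nrf2 -/- cells. Orai1 (ENSMUSG00000049686.14, chromosome 5, 123015074 to 123030456), the pore of the channel, was at 13.4 and 13.8 CPM in untreated wild-type cells and at 7.87 and 8.33 CPM with thapsigargin. Nrf2 -/- libraries had Orai1 at 10.3, 11.5 and 13.4 CPM untreated and at 7.60, 7.66 and 8.38 CPM treated. All treated libraries lay below all untreated ones (log2 −0.75 ± 0.13, edgeR BH-adjusted p = 6.05e-06, and −0.57 ± 0.11, 2.18e-05). Orai2 (ENSMUSG00000039747.11, chromosome 5, 136147459 to 136170713), a channel subunit that can temper ORAI1 currents, was at 17 to 20.2 CPM untreated and 24.6 to 25.1 CPM treated in Nrf2 -/- cells, a rise of 0.40 ± 0.08 (edgeR BH-adjusted p = 5.68e-05). In wild type it was at 20.6 and 20.6 CPM untreated and at 22.4 and 24.4 CPM treated, with a log2 fold of 0.18 (95% interval −0.02 to 0.39, edgeR BH-adjusted p = 0.123). It was called in wild type when the 3 libraries with conflicting labels were counted as wild type (0.25, edgeR BH-adjusted p = 0.0124). Nfe2l2 in those 3 libraries lay in the range of Nrf2 -/- libraries, so that setting may mix genotypes.

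Stim1 (ENSMUSG00000030987.5, chromosome 7, 102267806 to 102437319), the main sensor of store calcium, was at 39.3 and 39.6 CPM untreated and at 32.7 and 34.5 CPM with thapsigargin in wild type. In Nrf2 -/- cells it was at 36.4, 38.2 and 42.5 CPM untreated and at 28.7, 29.8 and 30.8 CPM treated. The groups did not overlap in either genotype, and the log2 folds were −0.23 ± 0.10 (edgeR BH-adjusted p = 0.0443) and −0.39 ± 0.08 (6.51e-05). The wild-type call was lost without any 1 of its 4 libraries (edgeR BH-adjusted p = 0.104 without untreated 8 h replicate 1, 0.125 without untreated 8 h replicate 2, 0.186 without thapsigargin 8 h replicate 1 and 0.0684 without thapsigargin 8 h replicate 2) and in DESeq2 (BH-adjusted p = 0.0625). Stim2 (ENSMUSG00000039156.19, chromosome 5, 53998499 to 54121057), the sensor tuned to small losses of store calcium, was at 41.9 to 49.4 CPM untreated and at 32.4 to 39.3 CPM treated over both genotypes. It fell by 0.41 ± 0.07 and 0.38 ± 0.06 on the log2 scale (edgeR BH-adjusted p = 7.84e-06 and 7.14e-07).

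The release channels moved in opposite directions, and the rise of Itpr1 was the largest log2 change among the 10 genes in both genotypes. Itpr1 (ENSMUSG00000030102.11, chromosome 6, 108213096 to 108551109), the receptor subtype best known from neurons, was at 11.4 and 13 CPM in untreated wild-type cells at 8 h and at 104 and 107 CPM with thapsigargin. In Nrf2 -/- cells it was at 11, 13.2 and 13.6 CPM untreated and at 89.1, 107 and 117 CPM treated. The log2 folds were 3.11 ± 0.16 (edgeR BH-adjusted p = 1.81e-19) and 3.05 ± 0.13 (2.86e-22). Itpr2 (ENSMUSG00000030287.15, chromosome 6, 146108299 to 146502223), the subtype known as the main one of glia, went from 488 and 502 CPM to 153 and 155 CPM in wild type, and from 483, 486 and 638 CPM to 131, 132 and 142 CPM in Nrf2 -/- cells. Its log2 folds were −1.68 ± 0.15 (edgeR BH-adjusted p = 1.42e-11) and −1.99 ± 0.13 (7.29e-16). The 638 CPM belong to the library labelled Nrf2 -/- untreated 8 h replicate 3, and without it the log2 fold in Nrf2 -/- cells was −1.84 ± 0.13. Per kilobase of merged exon, Itpr2 still stood above Itpr1 in all libraries with thapsigargin at 8 h. Itpr2 had 8.85 CPM per kb or more there, and Itpr1 at most 6.39. This order may depend on the length used. With kallisto's transcript estimates per length instead, the ranges over all libraries overlapped, with Itpr1 reaching 49.9 and Itpr2 going down to 24.8. In CPM the highest Itpr1 values (89.1 to 117) and the lowest Itpr2 values (131 to 155) were both in the thapsigargin 8 h libraries. By kallisto's measure the order in these libraries may thus be the reverse, and it was not compared library by library.

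Few of the 10 genes had moved after 1 h of thapsigargin. In wild type 1 of the 10 genes was called, beside 9.03% of all genes: Stim2 was at 50.5 and 56.4 CPM untreated and at 42.3 and 48.2 CPM treated (log2 −0.24 ± 0.07, edgeR BH-adjusted p = 0.0292). In Nrf2 -/- cells edgeR called 0, beside 9.29% of all genes, with 1 at an unadjusted p below 0.05 (Orai1, 0.24 ± 0.10, BH-adjusted p = 0.161), and DESeq2 called 0. The Stim2 call did not hold when the first replicate of either wild-type 1 h group was left out (−0.16, edgeR BH-adjusted p = 0.367, for untreated and −0.15, 0.473, for thapsigargin), nor with no filter on low counts (0.0854), with kallisto's estimated counts (0.123) and with a fit on the compared groups alone (0.0777). Atp2a2, Atp2b1, Itpr1 and Itpr2, the genes that moved most at 8 h, had log2 folds from −0.05 to 0.29 at 1 h.

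**Figure D3:**
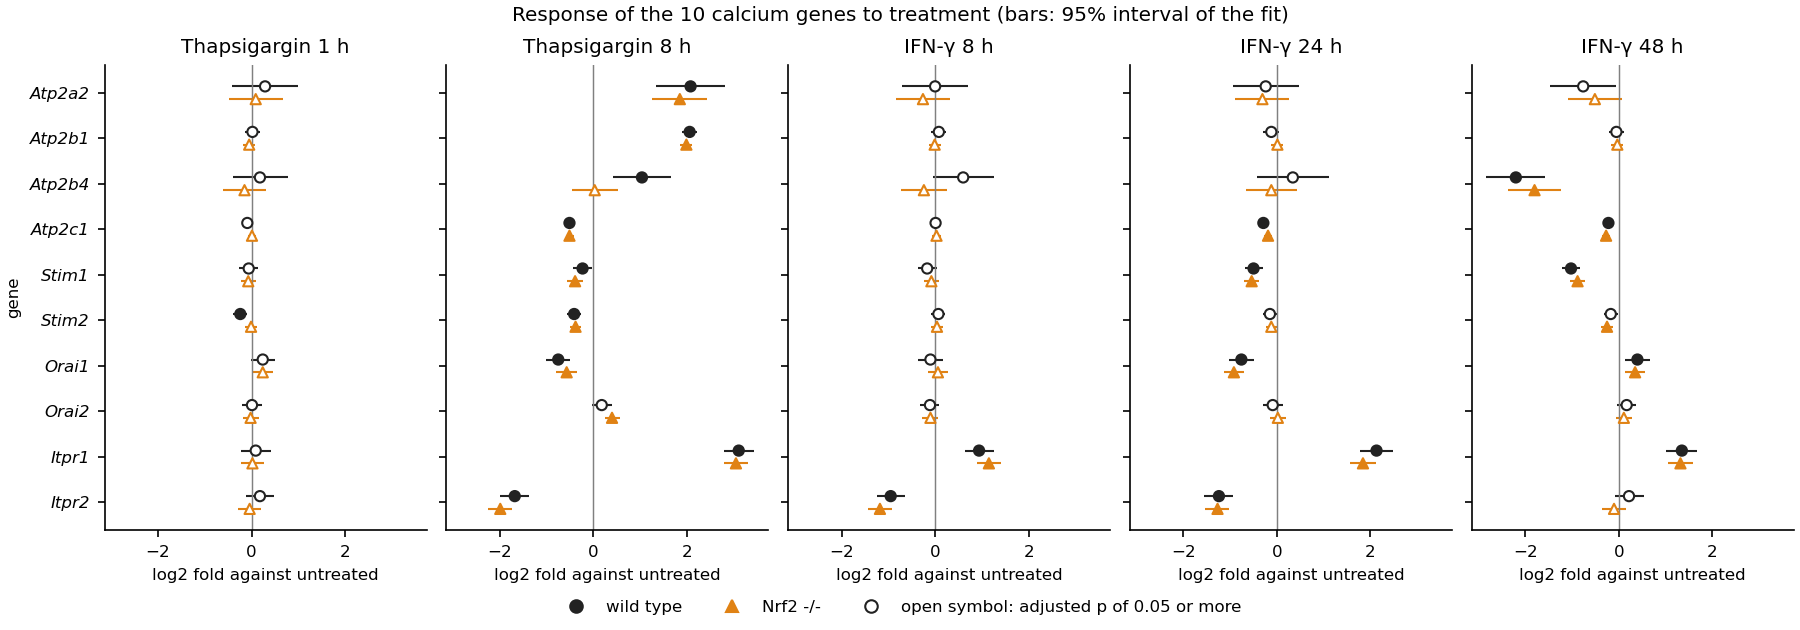
Log2 fold of each of the 10 genes against untreated cells of the same hour (x axis) in wild type (circles) and Nrf2 -/- cells (triangles), for 5 treatment times, with bars for the 95% interval and open symbols where the adjusted p was 0.05 or more. Itpr1 lies to the right and Itpr2 to the left at 8 h of either treatment and at 24 h of IFN-γ, and the intervals of Atp2a2 are among the widest.

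After 8 h of IFN-γ the release channels were the only ones of the 10 genes that passed the test. At 1 h edgeR called 0 of the 10 genes in either genotype, beside 2.10% of all genes in wild type and 2.21% in Nrf2 -/- cells, with 0 at an unadjusted p below 0.05 and 0 called by DESeq2. At 8 h edgeR called 1 higher (Itpr1) and 1 lower (Itpr2) in each genotype. Of all genes 26.4% were called in wild type, 13.7% as higher and 12.7% as lower, and 30.7% in Nrf2 -/- cells, 16.1% as higher and 14.6% as lower. Itpr1 was at 22.2 to 32.9 CPM with IFN-γ and 11 to 13.6 CPM untreated, and rose by 0.94 ± 0.15 in wild type and 1.15 ± 0.13 in Nrf2 -/- cells (edgeR BH-adjusted p = 5.78e-06 and 7.62e-10). Itpr2 was at 212 to 290 CPM with IFN-γ and 483 to 638 CPM untreated, and fell by 0.95 ± 0.15 and 1.18 ± 0.12 on the log2 scale (5.59e-06 and 8.76e-10, edgeR BH-adjusted). At 8 h of IFN-γ the 7 oligodendrocyte markers summed to 3390 to 4380 CPM against 5830 to 7340 CPM untreated, the 4 progenitor markers to 2670 to 3070 against 3390 to 3980 CPM, the 5 astrocyte markers to 70.7 to 89.6 against 27.2 to 31.5 CPM and the 5 neuron markers to 21.3 to 28.1 against 13.3 to 19.1 CPM. Their part in the changes of Itpr1 and Itpr2 was not tested. The thapsigargin and IFN-γ comparisons at 1 and 8 h share their untreated libraries.

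At 24 h of IFN-γ 5 genes differed from untreated cells of the same hour in each genotype: 1 was higher and 4 were lower. Of all genes 43.2% were called in wild type, 21.7% as higher and 21.5% as lower, and 47.3% in Nrf2 -/- cells, 22.6% as higher and 24.7% as lower. Itpr1 was at 16.6 to 24.6 CPM with IFN-γ while untreated cells had dropped to 4.34 to 6.12 CPM (log2 2.13 ± 0.17 in wild type, 1.84 ± 0.14 in Nrf2 -/-). Itpr2 was at 312 to 395 CPM against 742 to 899 CPM untreated (−1.24 ± 0.15 and −1.27 ± 0.12). Orai1 was at 10.4 to 12.3 CPM with IFN-γ against 18.8 to 21 CPM untreated, which was its highest untreated level (−0.76 ± 0.13 and −0.92 ± 0.11). Stim1 was at 52.6 to 60.5 CPM against 77.1 to 84.7 CPM (−0.50 ± 0.10 and −0.54 ± 0.08). None of these ranges overlapped. Atp2c1 fell by 0.29 ± 0.05 and 0.19 ± 0.04 on the log2 scale. The edgeR BH-adjusted p of these 5 genes ran from 1.17e-14 for Itpr1 to 0.000234 for Atp2c1, both in Nrf2 -/- cells. At 24 h the oligodendrocyte markers summed to 4590 to 6340 CPM with IFN-γ against 16600 to 20700 CPM untreated, the progenitor markers to 2260 to 3030 against 1900 to 2270 CPM, the astrocyte markers to 45.9 to 62.7 against 20.3 to 33.6 CPM and the neuron markers to 12.7 to 17.2 against 14.4 to 20.1 CPM. Their part in these 5 changes was not tested.

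At 48 h of IFN-γ the pattern had changed. Against untreated cells of that hour 2 were higher and 3 lower in wild type, beside 21.1% higher and 22% lower of all genes (43.1% called). In Nrf2 -/- cells 2 were higher and 4 lower, beside 22.8% higher and 22.6% lower (45.4% called). Itpr1 was still higher, at 17.1 to 22.6 CPM against 6.79 to 8.33 CPM (1.35 ± 0.16 and 1.32 ± 0.13, edgeR BH-adjusted p = 6.66e-09 and 8.29e-11). Itpr2 was at 551 to 783 CPM with IFN-γ and at 562 to 842 CPM untreated, and the groups overlapped (0.22, 95% interval −0.08 to 0.53, and −0.10, −0.35 to 0.15). It was called higher in wild type without IFN-γ 48 h replicate 1 (0.47, edgeR BH-adjusted p = 0.043). Stim1 was at 63.8 to 92.1 CPM against 134 to 168 CPM, a wider gap to untreated cells than at 24 h by value (−1.02 ± 0.10 and −0.88 ± 0.08, a difference between hours that was not tested). In IFN-γ libraries Stim1 was at 33.8 to 38.2 CPM at 8 h and 52.6 to 60.5 CPM at 24 h. By value it thus went up over time with IFN-γ too, but less than in untreated cells. Stim2 fell in Nrf2 -/- cells by 0.25 ± 0.06 on the log2 scale (edgeR BH-adjusted p = 0.000599) and stood at −0.17 ± 0.07 in wild type (0.061), where it was called with RLE size factors (0.0382) and by DESeq2 (0.0299).

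Orai1, lower than in untreated cells at 24 h, was higher than in untreated cells at 48 h. The log2 folds at 48 h were 0.40 ± 0.13 and 0.35 ± 0.11 (edgeR BH-adjusted p = 0.0124 and 0.00664). With IFN-γ it was at 10.4 to 12.3 CPM at 24 h and 10.6 to 15.2 CPM at 48 h. Untreated cells went from 18.8 to 21 CPM at 24 h to 8.20 to 11.3 CPM at 48 h. By value most of the change between these hours lay in untreated cells, which was not tested. Wild-type libraries had 8.20 and 10.3 CPM untreated and 10.6 and 13.9 CPM with IFN-γ, and Nrf2 -/- libraries had 10.3 to 11.3 CPM untreated and 12.0 to 15.2 CPM with IFN-γ. The wild-type call did not hold when replicate 2 of either group was left out (0.21, edgeR BH-adjusted p = 0.275, for IFN-γ 48 h and 0.25, 0.252, for untreated 48 h) or with a fit on the compared groups alone (0.43, 0.185). The Nrf2 -/- call was lost without IFN-γ 48 h replicate 2 (0.28, 0.055).

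Among the pumps at 48 h of IFN-γ, Atp2b4 and Atp2c1 fell in both genotypes. Atp2b4 was at 0.311 to 0.693 CPM with IFN-γ and 1.38 to 3.02 CPM untreated, without overlap (−2.20 ± 0.31 in wild type, −1.80 ± 0.28 in Nrf2 -/-, edgeR BH-adjusted p = 2.13e-07 and 9.22e-07). With kallisto's estimated counts these values were −0.83 ± 0.19 (0.000791) and −0.33 ± 0.16 (edgeR BH-adjusted p = 0.114). Atp2c1 fell by 0.22 ± 0.05 and 0.27 ± 0.04 on the log2 scale, and the wild-type call was lost with a fit on the compared groups alone (BH-adjusted p = 0.316). Atp2a2 was not called: its log2 folds were −0.76 (95% interval −1.47 to −0.05, edgeR BH-adjusted p = 0.0766) and −0.51 (−1.08 to 0.07, 0.15). It was called lower without replicate 2 of the IFN-γ 48 h libraries of either genotype (−1.23, edgeR BH-adjusted p = 0.0264, in wild type and −0.80, 0.0365, in Nrf2 -/-), and so was wild-type Atp2b1 (−0.23, 0.0358). At 48 h the 7 oligodendrocyte markers summed to 14400 to 19100 CPM with IFN-γ and 32800 to 36000 CPM untreated, and the 4 progenitor markers to 1760 to 2470 against 1430 to 1650 CPM. The astrocyte markers summed to 61.2 to 94 against 69.4 to 161 CPM and the neuron markers to 7.74 to 14.1 against 12.3 to 15.8 CPM. The part of these markers in the 48 h results was not tested.

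Compared with each other at 8 h, over both genotypes, thapsigargin and IFN-γ parted on 9 of the 10 genes. With thapsigargin 4 were higher and 5 lower, beside 34.1% higher and 33.8% lower of all genes (67.8% called). Atp2a2 was higher with thapsigargin by 2.10 ± 0.23, Atp2b1 by 1.99 ± 0.05, Itpr1 by 2.03 ± 0.10 and Orai2 by 0.40 ± 0.07 on the log2 scale (edgeR BH-adjusted p from 6.18e-30 for Atp2b1 to 1.18e-06 for Orai2). Itpr2 (−0.77 ± 0.10), Orai1 (−0.64 ± 0.09), Atp2c1 (−0.53 ± 0.03), Stim2 (−0.45 ± 0.05) and Stim1 (−0.19 ± 0.06) were lower. Atp2b4 (0.36 ± 0.19) was not called, but was without Nrf2 -/- IFN-γ 8 h replicate 1 (0.47, edgeR BH-adjusted p = 0.0392) or wild-type thapsigargin 8 h replicate 1 (0.55, 0.0167). Both agents lowered Itpr2 and raised Itpr1 at 8 h, and each change was larger with thapsigargin. At 1 h Orai1 was higher with thapsigargin than with IFN-γ (0.35 ± 0.08, edgeR BH-adjusted p = 0.00141) and Stim2 lower (−0.18 ± 0.05, 0.00348), beside 13.9% higher and 10.5% lower of all genes (24.3% called). Both 1 h calls were lost without wild-type thapsigargin 1 h replicate 1 (0.25, edgeR BH-adjusted p = 0.0549, and −0.14, 0.0718), and that of Stim2 with kallisto's estimated counts (−0.14, 0.0735).

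In untreated cells 8 of the 10 genes differed between 48 h and 1 h over both genotypes. Of these 5 were higher and 3 lower, beside 34.5% higher and 33.6% lower of all genes (68.1% called). Stim1 rose most, from 32.8 to 37.0 CPM at 1 h through 36.4 to 42.5 CPM at 8 h and 77.1 to 84.7 CPM at 24 h to 134 to 168 CPM at 48 h (2.11 ± 0.07, edgeR BH-adjusted p = 1.45e-27). Itpr2 rose from 335 to 395 CPM at 1 h to 742 to 899 CPM at 24 h and was at 562 to 842 CPM at 48 h (0.79 ± 0.10). Itpr1 took the opposite course, from 13.4 to 19.7 CPM at 1 h to 4.34 to 6.12 CPM at 24 h and 6.79 to 8.33 CPM at 48 h (−1.09 ± 0.10). Over the 20 group means of log2 CPM, Itpr1 and Itpr2 had a Pearson r of −0.90, given as a description.

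Smaller differences over the same hours were seen in the other genes. Atp2b1 (0.33 ± 0.05) and Atp2c1 (0.17 ± 0.03) were higher at 48 h than at 1 h, and Orai1 (−0.38 ± 0.08) and Orai2 (−0.34 ± 0.07) were lower. Atp2b4 was called higher (0.42 ± 0.18, edgeR BH-adjusted p = 0.0367), but with kallisto's estimated counts its value was −0.07 ± 0.12 (0.665). Leaving out any of 6 untreated libraries also ended that call, with edgeR BH-adjusted p in brackets: in wild type 1 h replicate 1 (0.0758), 1 h replicate 2 (0.0844) and 48 h replicate 2 (0.267, at 0.26), and in Nrf2 -/- 1 h replicate 2 (0.0664), 1 h replicate 3 (0.0511) and 48 h replicate 3 (0.0818). Atp2a2 (0.23 ± 0.22) and Stim2 (0.02 ± 0.05) were not called. Between the same hours the 7 oligodendrocyte markers went from a sum of 3480 to 4630 CPM to 32800 to 36000 CPM, the 4 progenitor markers from 3970 to 4540 CPM to 1430 to 1650 CPM and the 5 astrocyte markers from 32.4 to 41.2 CPM to 69.4 to 161 CPM. Their part in the differences of the 10 genes was not tested.

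No difference between the genotypes passed the test for any of the 10 genes, which does not show that they were equal. Averaged over hours, edgeR called 0 of them untreated (0.0243% of all genes were called), 0 with IFN-γ (0.0547%) and 0 with thapsigargin (0.510%), and DESeq2 called 0 in each. At an unadjusted p below 0.05 there were 1, 1 and 2: Itpr1 untreated (0.18 ± 0.08), Itpr2 with IFN-γ (−0.15 ± 0.07), and Stim1 (−0.16 ± 0.06) and Itpr2 (−0.27 ± 0.10) with thapsigargin, with edgeR BH-adjusted p of 0.692, 0.49, 0.403 and 0.316. For Atp2a2 the 95% intervals of the genotype difference were −0.26 to 0.38 untreated, −0.38 to 0.26 with IFN-γ and −0.58 to 0.33 with thapsigargin on the log2 scale. The difference between genotypes in the response to IFN-γ at 1, 8, 24 and 48 h, to thapsigargin at 1 and 8 h, and in the untreated change from 1 to 48 h was called for 0 of the 10 genes by edgeR and by DESeq2, and edgeR called 0% of all genes in each of these 7 comparisons. At an unadjusted p below 0.05 these held 1, 1, 0, 0, 1, 1 and 2 of the 10 genes in that order. The IFN-γ 48 h difference of Stim1 was 0.14 ± 0.12 with all libraries and was called without wild-type IFN-γ 48 h replicate 2 (0.45, edgeR BH-adjusted p = 0.0206). The library labelled Nrf2 -/- untreated 8 h replicate 3, with Nfe2l2 in the wild-type range, was counted as Nrf2 -/- in the genotype comparisons. Leaving it out added no call between genotypes, and counting it as wild type was not tested.

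Sequence upstream of the start site is shown for 3 of the genes that moved in different directions: Itpr2 and Orai1, which fell with thapsigargin, and Atp2b1, which rose. The windows are the 250 bases that end at the base before a RefSeq start site (GRCm38.p6). Printed is the longest stretch outside GENCODE exons, with matches to the motifs below on either strand in capitals. For Orai1 the 79 bases nearest the start lie in an exon and are not printed, with a CCACG match at bases −61 to −57. The Atp2b1 window printed belongs to a start inside the gene, which begins at 98914406. Its other window lies mostly in an exon (236 of 250 bases) and is not printed.
Itpr2, chr6:146502224-146502473, minus strand: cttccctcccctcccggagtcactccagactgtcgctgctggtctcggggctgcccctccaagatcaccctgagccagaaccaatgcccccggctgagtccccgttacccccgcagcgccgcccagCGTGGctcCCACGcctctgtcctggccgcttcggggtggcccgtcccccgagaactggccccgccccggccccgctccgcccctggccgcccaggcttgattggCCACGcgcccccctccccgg
Orai1, chr5:123014824-123014994, plus strand: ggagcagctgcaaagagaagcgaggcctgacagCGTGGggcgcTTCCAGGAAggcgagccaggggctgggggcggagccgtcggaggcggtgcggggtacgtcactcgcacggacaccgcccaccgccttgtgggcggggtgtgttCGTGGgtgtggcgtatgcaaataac
Atp2b1, chr10:98914902-98915151, plus strand: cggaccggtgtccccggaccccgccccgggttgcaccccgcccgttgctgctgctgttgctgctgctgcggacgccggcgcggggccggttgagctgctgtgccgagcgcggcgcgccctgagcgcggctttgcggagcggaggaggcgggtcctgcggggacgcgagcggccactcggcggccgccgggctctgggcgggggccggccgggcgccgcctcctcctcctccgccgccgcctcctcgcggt
The table holds windows for 8 of the 10 genes, with 2 starts each for Atp2b1 and Atp2c1, and none for Atp2a2 and Itpr1. Motifs were searched in the full 250 bases. CCACG, the end of the ER stress response element and, reversed, the end of TGACGTGG, was found in 5 of the 10 windows of these genes (1 each of Atp2c1, Itpr2, Orai1, Orai2 and Stim2) and in 28.3% of all 32851 windows. The whole element, CCAAT and CCACG with 9 bases between them, was in none of them and in 0.113% of all windows. TTCNNNGAA, the interferon gamma activated site (GAS), was found once, in Orai1 (bases −207 to −199 from the start), and in 7.02% of all windows. TGACGTGG (0.563% of all windows), TGATGNAAT (0.816%), TGACGTCA (1.55%), the interferon-stimulated response element core, GAAA repeated after 2 bases (2.98%), and the antioxidant response element core, TGAC and GCA with 3 bases between them (2.47%), were found in no window of these genes. The printed Itpr2 window has 3 CCACG matches and the printed Atp2b1 window has no match to any of these motifs. A match is a string of letters and was not tested as a binding site.

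The rest of the calcium machinery was read from lists of related genes, whose counts stand beside 55.5% (28.4% higher, 27.1% lower) of all genes called in wild type with thapsigargin at 8 h and 60.0% (30.4% and 29.6%) called in Nrf2 -/- cells. With thapsigargin at 8 h the list that leaned furthest was that of calcium-binding proteins of the ER lumen: of 15 tested, 12 rose and 1 fell in wild type and 13 rose and 1 fell in Nrf2 -/- cells, with median log2 folds of 1.66 and 1.82. Nucb2, nucleobindin 2, rose by 3.81 ± 0.12 and 4.13 ± 0.10, the disulfide isomerase Pdia4 by 3.48 ± 0.08 and 3.58 ± 0.07 and the chaperone Hspa5 (BiP) by 3.31 ± 0.08 and 3.50 ± 0.07. The edgeR BH-adjusted p of these 3 ran from 4.01e-27 to 1.58e-34. Among 6 tested regulators of SERCA, 2 rose and 3 fell in wild type and 3 rose and 2 fell in Nrf2 -/- cells. Erp44 (1.73 ± 0.07 and 1.79 ± 0.06) and Dnajc10 (1.46 ± 0.07 and 1.45 ± 0.06), luminal redox proteins, rose, and S100a1 (−2.47 ± 0.18 and −2.16 ± 0.15) fell.

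Among 10 other pumps and exchangers, 2 rose and 5 fell in each genotype with thapsigargin at 8 h, beside 55.5% and 60.0% of all genes called. Atp2a3, encoding SERCA3, had 0 counts in both untreated wild-type libraries and 0, 0 and 3 in the untreated Nrf2 -/- libraries, and 42 and 46 and 55, 56 and 74 counts with thapsigargin. The exchangers Slc24a2 (−1.25 ± 0.20 and −1.73 ± 0.17) and Slc8b1, the mitochondrial sodium/calcium exchanger (−1.14 ± 0.20 and −1.17 ± 0.17), fell. Among 8 other genes of store-operated entry 3 rose and 2 fell in wild type, and 2 rose and 5 fell in Nrf2 -/- cells. Saraf, which switches STIM1 off, rose by 1.29 ± 0.08 and 1.49 ± 0.07, and Trpc1 rose by 1.34 ± 0.09 and 1.42 ± 0.07. Saraf was thus higher in the libraries in which Stim1 was lower.

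Of 15 other release channels and their partners 3 rose and 5 fell in wild type, and 4 rose and 5 fell in Nrf2 -/- cells, which is near the 55.5% and 60.0% of all genes called. The ryanodine receptor Ryr2 (2.48 ± 0.23 and 2.44 ± 0.19) rose, as did Itpr1, and Ahcyl2 (0.73 ± 0.07 and 0.71 ± 0.05) rose too. Homer3, a scaffold that binds inositol trisphosphate receptors, fell (−2.12 ± 0.08 and −2.08 ± 0.07). Downstream lists were mixed: among 11 genes of mitochondrial uptake 4 rose and 6 fell in each genotype, and among 13 of calmodulin, calcineurin and NFAT 4 rose and 5 fell in each. Mcu, the uniporter pore, rose by 0.70 ± 0.10 and 0.68 ± 0.08, and Calm3 fell (−0.90 ± 0.08 and −0.66 ± 0.07). Of 15 voltage-gated channel genes 9 rose and 2 fell in wild type and 7 rose and 3 fell in Nrf2 -/- cells, among them Cacna2d1 (1.42 ± 0.19 and 1.26 ± 0.16). The median log2 folds of these lists in wild type ran from −0.31 for mitochondrial uptake to 0.55 for voltage-gated channels, beside 0.02 over all genes.

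**Figure D4:**
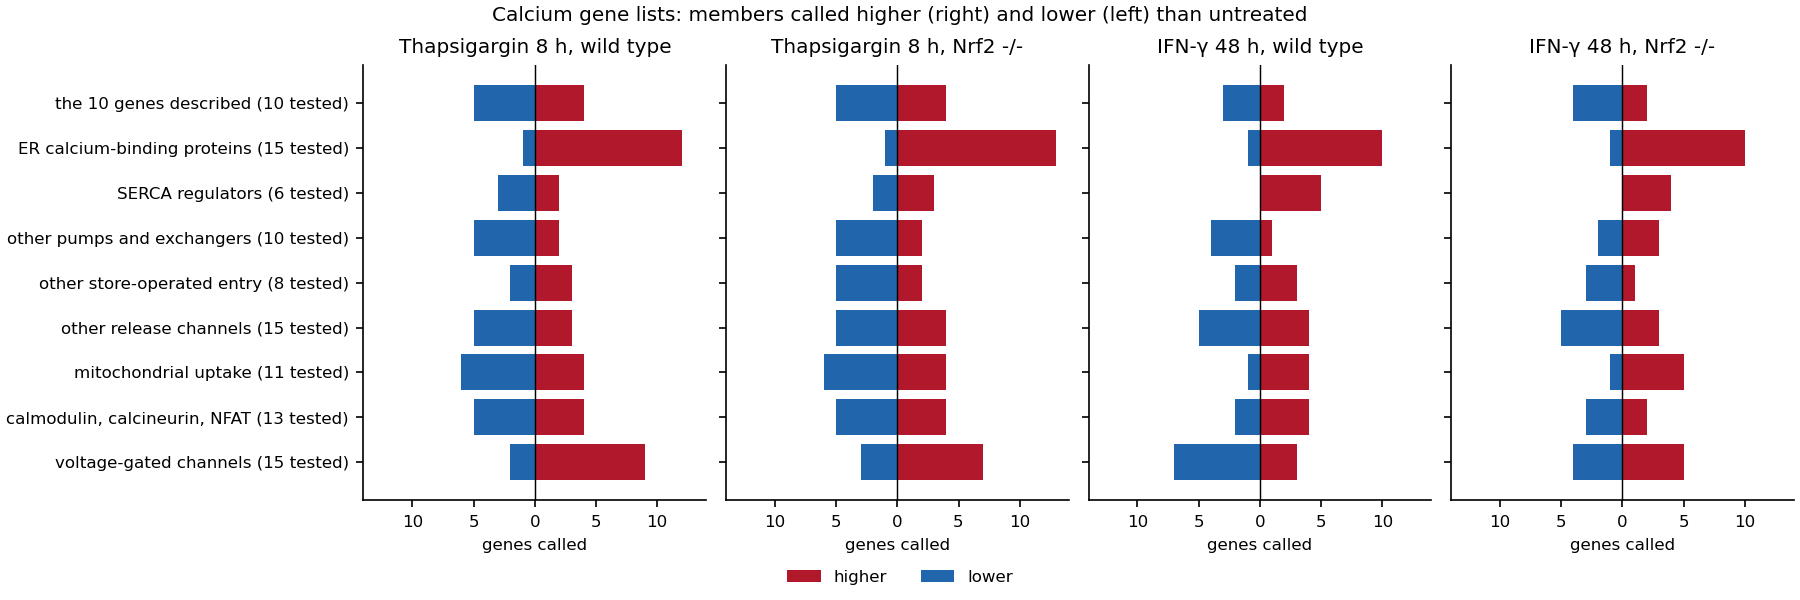
Number of genes called higher (right, red) and lower (left, blue) than untreated in each list of calcium genes, with the number tested in brackets, for thapsigargin at 8 h and IFN-γ at 48 h in both genotypes. The ER calcium-binding proteins have 12 and 13 of 15 higher with thapsigargin and 10 of 15 higher with IFN-γ at 48 h, while the other lists hold calls on both sides in most panels.

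With IFN-γ at 8 h, where 26.4% of all genes were called in wild type and 30.7% in Nrf2 -/- cells, other genes of these lists were called. Mcub, the inhibitory subunit of the mitochondrial uniporter, rose by 4.18 ± 0.20 in wild type and 3.82 ± 0.15 in Nrf2 -/- cells (edgeR BH-adjusted p = 1.57e-20 and 4.66e-23) while Mcu fell (−0.29 ± 0.10 and −0.45 ± 0.08). The channel subunit genes Cacnb2 (3.77 ± 0.23 and 3.98 ± 0.19) and Cacna1e (2.66 ± 0.29 and 2.17 ± 0.22) rose. So did Trpc4 (1.25 ± 0.14 and 1.21 ± 0.11) and the ER calcium-binding Rcn1 (1.56 ± 0.09 and 1.66 ± 0.08). Of the 15 ER calcium-binding proteins 1 rose and 3 fell in wild type and 2 rose and 2 fell in Nrf2 -/- cells at 8 h. At 48 h, where 43.1% of all genes (21.1% higher) were called in wild type and 45.4% (22.8% higher) in Nrf2 -/- cells, 10 of them rose and 1 fell in each genotype (medians 0.42 and 0.47), and of the 6 SERCA regulators 5 rose in wild type and 4 in Nrf2 -/- cells and 0 fell (medians 0.48 and 0.37), while Atp2a2 itself had negative folds that were not called.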

How the data were processed

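Bulk RNA-seq was analysed in 50 libraries in 20 groups. Replicate numbers only name libraries, in accession order. The authors deposited a table of gene counts (39056 entries) and a table of kallisto estimated counts per transcript (112588 entries). The submitters' processing notes name STAR, featureCounts, kallisto and edgeR. Not given in the sources used here were tool versions, genome build, annotation and strand setting. By ID, 38872 gene entries matched GENCODE M21 (GRCm38), from which positions were taken, and 184 did not. Transcripts were assigned to genes for 111887 entries, holding 99.65% of estimated counts.

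Counts were filtered with filterByExpr (10 counts, 15 in total), which left 16460 genes, and scaled by TMM. One edgeR 4.0.16 quasi-likelihood fit (R 4.3.3, limma 3.58.1) over all 20 groups gave each contrast, with BH adjustment over all genes, a threshold of 0.05, 95% intervals and a common dispersion of 0.00983. The code was tested on simulated data. DESeq2 1.42.0, RLE factors, an Xist covariate, no filter, rounded kallisto estimated counts, a fit on the compared groups alone, other genotypes for the 3 libraries with conflicting labels (titles were followed), and leaving out each library were alternatives. Transcripts of at least 5% of their gene were compared by exact permutation within genotype, two-sided.

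The members and lists were chosen with earlier results of these data known. All 10 members are named, and from each list at most the 3 genes with the largest absolute log2 fold among those called in both genotypes at 8 h, plus the 5 genes nearest Atp2a2 and treatment checks. Intervals cover the spread between libraries only.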

Additional observations from a re-analysis of the deposited data

Results flagged for a closer look

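Atp2b1, the plasma membrane pump PMCA1, had libraries on opposite sides of the untreated ones in the genotypes after 1 h of IFN-γ, although neither genotype's change passed (log2 0.12 in wild type, edgeR BH-adjusted p = 0.811, and −0.10 in Nrf2 -/- cells, 0.834). Wild-type libraries had 94.7 and 95.1 CPM untreated and 99.9 and 106 CPM with IFN-γ, so both treated libraries lay above both untreated ones. Nrf2 -/- libraries had 97.8, 103 and 103 CPM untreated and 93.3, 94.8 and 95 CPM with IFN-γ, so all treated libraries lay below all untreated ones. The response in Nrf2 -/- cells minus that in wild type was −0.22 on the log2 scale (95% interval −0.43 to −0.02). This difference did not pass (edgeR BH-adjusted p = 0.986, unadjusted 0.0362). Among the 10 genes and all treatment times of both agents, this was the only case with full separation in opposite directions. It was picked out for that pattern. With so few libraries per group, such a case among many comparisons can arise from the spread between libraries alone.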

How the results depend on the processing

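Among single-gene values, 491 of the alternative settings kept direction and call, 12 lost a call, 4 gained one and 1 reversed: Atp2b4 between untreated 48 h and 1 h, at −0.07 with kallisto's estimated counts. Leaving out 1 library kept 401 values, ended 19 calls and added 7. Of the counts of the 10 genes called, that for thapsigargin 8 h in wild type (9) was 8 with RLE size factors, DESeq2, the compared groups alone (Stim1 lost in each) and kallisto's estimated counts (Atp2b4 lost), 10 with the conflicting libraries as wild type, and 7 to 8 when each library was left out. That for IFN-γ 48 h in wild type (5) was 3 with a fit on the compared groups alone. For thapsigargin 1 h in wild type (1) it was 0 with no filter, with kallisto's estimated counts and with the compared groups alone, and 0 to 1 when each library was left out. For thapsigargin against IFN-γ at 1 h (2) it was 1 with kallisto's estimated counts and 0 to 2 when each library was left out. The genotype difference at IFN-γ 48 h (0) ranged from 0 to 1. Fewer samples and genes enter the compared-groups fit, and otherwise the cause was not tested. Low counts limit Atp2b4. No paired analysis was possible because the labels carry no replicate numbers, and those used here follow accession order and pair nothing.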
